A study of Mus musculus with 12 samples.

Results

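The 25 genes described here encode 18 enzymes that turn acetyl-CoA into cholesterol, 6 proteins that make up or control the transcription factor SREBP2 (Srebf2, Scap, Mbtps1, Mbtps2, Insig1 and Insig2) and the sterol carrier Stard4. They were taken by symbol from the deposited read counts, and all 25 stand in both tables, among 28731 genes in the table of HFD PCN and HFD Vehicle and 28066 in the table of HFD and Chow. The list does not hold every gene of the pathway. Duodenal RNA of C57BL/6N mice was sequenced in 4 groups of 3 libraries, and the labels list no transgene or deletion. HFD PCN mice ate a high-fat diet and had PCN (pregnenolone 16-alpha-carbonitrile, a ligand of the rodent nuclear receptor PXR) at 50 mg/kg, injected into the abdomen on each of 4 days. HFD Vehicle mice ate the same diet and had injections of 30% DMSO in corn oil. HFD mice ate the diet and Chow mice ate regular chow, and the labels list no injection for either. All mice started at 6 weeks of age and spent 18 weeks on their diet. The labels number the libraries but do not say that each is a separate animal, so p-values may measure technical spread.

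Cholesterol is built in the cytosol and the endoplasmic reticulum in 3 stretches. The mevalonate steps make isoprenoid units and farnesyl diphosphate, a pair of steps joins and oxidises squalene, which is closed to lanosterol, and a longer stretch trims lanosterol to cholesterol. When sterols in the endoplasmic reticulum are low, Scap carries SREBP2 to the Golgi, where the proteases encoded by Mbtps1 and Mbtps2 release its active part, and Insig1 and Insig2 hold the complex back when sterols are high. Released SREBP2 switches on most genes of the pathway, including Insig1 and its own gene, so these messenger RNAs are commonly read together. In the small intestine the same cells also take up cholesterol from food and bile.

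The sequences below are shown because SREBP2 binds next to gene starts, together with the factor NF-Y, which binds the CCAAT box. They belong to Hmgcs1, Idi1, Hsd17b7 and Sc5d, which are some of the 7 enzymes for which HFD PCN stood apart. The other sequences are those of Insig1, the 1 gene called in a comparison, and Srebf2, whose level is compared with that of the enzymes. Each is the 250 bases before the RefSeq start in GRCm38.p6, 5′ to 3′ on the gene's strand, and the RefSeq start can differ from the start in the deposited tables. Capitals mark the sterol response element in the form TCACNCCAC and the CCAAT box in the form CCAAT or, read on the other strand, ATTGG.
Hmgcs1 (chr13:119690101-119690350, plus strand): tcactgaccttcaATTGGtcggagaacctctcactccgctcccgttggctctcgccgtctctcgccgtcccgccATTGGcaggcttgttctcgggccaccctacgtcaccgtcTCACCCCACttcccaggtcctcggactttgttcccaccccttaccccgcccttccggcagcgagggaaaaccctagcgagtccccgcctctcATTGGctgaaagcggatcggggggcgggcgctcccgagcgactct
Idi1 (chr13:8885356-8885605, plus strand): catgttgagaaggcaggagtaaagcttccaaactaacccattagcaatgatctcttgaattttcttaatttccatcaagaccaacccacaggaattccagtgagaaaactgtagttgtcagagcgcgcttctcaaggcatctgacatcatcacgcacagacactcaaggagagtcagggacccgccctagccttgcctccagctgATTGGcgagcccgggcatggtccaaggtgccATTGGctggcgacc
Hsd17b7 (chr1:169969206-169969455, minus strand): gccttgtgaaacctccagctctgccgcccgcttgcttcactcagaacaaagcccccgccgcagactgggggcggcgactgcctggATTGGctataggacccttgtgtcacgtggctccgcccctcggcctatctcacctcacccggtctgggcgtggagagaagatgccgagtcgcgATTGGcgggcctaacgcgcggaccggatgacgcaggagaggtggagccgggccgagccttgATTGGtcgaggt
Sc5d (chr9:42264301-42264550, minus strand): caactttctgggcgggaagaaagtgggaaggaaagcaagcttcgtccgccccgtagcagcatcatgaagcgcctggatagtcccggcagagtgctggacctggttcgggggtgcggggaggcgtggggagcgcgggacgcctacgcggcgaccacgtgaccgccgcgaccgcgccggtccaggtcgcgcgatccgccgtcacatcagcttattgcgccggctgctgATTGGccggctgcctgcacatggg
Insig1 (chr5:28071162-28071411, plus strand): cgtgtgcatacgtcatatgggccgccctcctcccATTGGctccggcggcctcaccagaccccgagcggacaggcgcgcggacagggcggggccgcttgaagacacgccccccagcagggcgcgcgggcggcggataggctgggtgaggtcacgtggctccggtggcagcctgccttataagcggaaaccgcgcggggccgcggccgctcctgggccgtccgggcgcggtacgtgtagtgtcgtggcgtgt
Srebf2 (chr15:82147019-82147268, plus strand): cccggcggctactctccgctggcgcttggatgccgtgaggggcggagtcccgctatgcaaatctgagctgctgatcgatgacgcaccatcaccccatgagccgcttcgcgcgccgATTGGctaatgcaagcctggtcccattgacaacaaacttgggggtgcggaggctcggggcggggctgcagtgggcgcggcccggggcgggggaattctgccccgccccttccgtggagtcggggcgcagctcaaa
Both strands of 300 bases were searched in each promoter (250 before and 50 after the start). Promoters were at hand for 21 of the 25 genes, 27 promoters in all. The counts that follow are of genes and the shares are of single promoters, so they differ in unit. The sterol response element in this form was found in 1 of the 21, Hmgcs1, where it starts 137 bases before the gene, and in 1.24% of all 32851 promoters. The CCAAT box was found in 17 of the 21 genes and in 37.4% of all promoters. The genes without it were Acat2, for which HFD PCN also stood apart, and Scap, Mbtps1 and Mbtps2. The GC box GGGCGG, to which the factor Sp1 binds, was found in 19 of the 21 and in 35.7% of all. The matches do not overlap each other in the 6 sequences shown. A match describes letters, and other forms of the sterol response element were not searched.

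The libraries held 4676718 to 20684369 counts. Levels of single libraries are given as CPM, counts per 1000000 after TMM scaling over all 12 libraries on the genes in both tables. No source used here says how far the tables were counted alike. Genes in both tables held 4283521 of the 4925123 counts of HFD 4. They held 18316669 of 18510000 in HFD 30 and 16272865 of 16732793 in HFD 38. In Chow 19 they held 14818928 of 14823031, and in HFD PCN 5 20678108 of 20684369. The extraction protocol speaks of liver, but the hepatocyte product Alb stood at 0.107 to 1.16 CPM and the brush border gene Vil1 at 1172 to 2390 CPM, so the libraries carry the markers of the labelled tissue. The hepatocyte list summed to 694 to 1150 CPM, nearly all of it Cps1, which the gut also expresses. HFD Vehicle 23 stood apart, with mitochondrial ribosomal RNA at 33.6% of its counts, where the other libraries had 8.69% to 19.2%. The 10 heat shock chaperones listed, of which 6 stand in both tables, summed to 8210 CPM in HFD Vehicle 23 and to 6480 CPM in its group mate 50, with 898 to 2918 CPM in the remaining libraries. As a check of the treatment, the PXR target Cyp3a11 stood at 12006, 9184 and 4677 CPM in HFD PCN 5, 11 and 27 and at 165 to 1128 CPM in the HFD Vehicle libraries.

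Across the 4 groups, most of these genes had their highest group mean in HFD PCN and their lowest in HFD. For 7 of the 25 genes (Acat2, Hmgcs1, Idi1, Sqle, Msmo1, Hsd17b7 and Sc5d) each HFD PCN library stood above all 9 libraries of the other groups, which held for 1.99% of the 14800 genes with a mean of at least 1 CPM. The group mean was highest in HFD PCN for 16 of the 25 genes, where this held for 30.0% of those 14800 genes, and lowest in HFD for 15 of the 25, where this held for 22.5%. Fdft1 and Lss were lower in every HFD library than in any library of the other groups (0.736% of those genes). Fdps was higher in every HFD Vehicle library than in any other library (0.581%). All 7 genes that set HFD PCN apart are enzymes. Among the proteins around SREBP2, Insig2 was lower in every HFD Vehicle library than in any other library (0.784%).

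**Figure D1:**
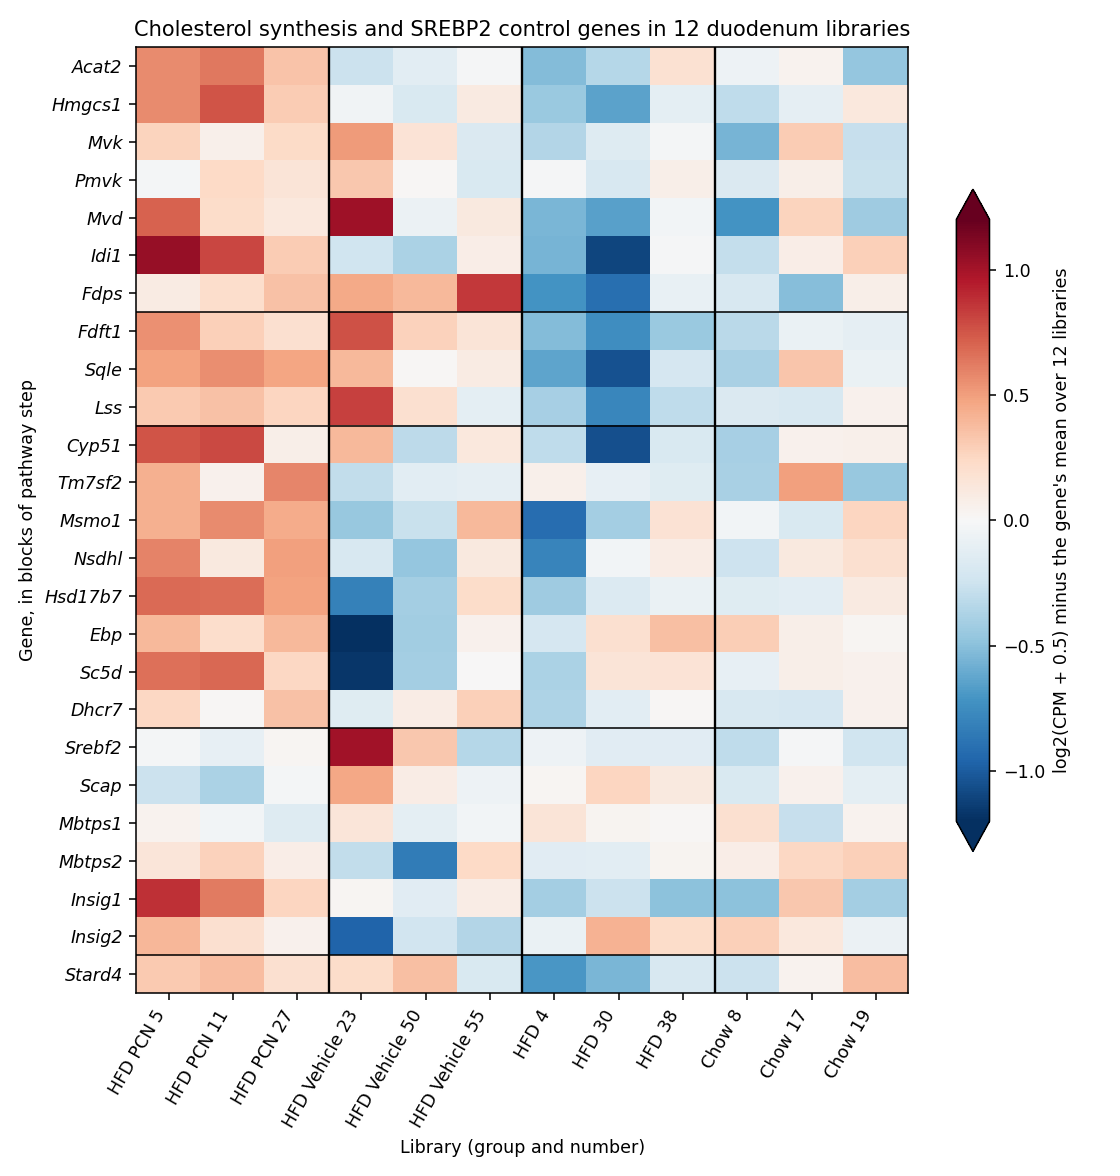
Each row is 1 of the 25 genes in pathway order and each column 1 library; colour gives log2(CPM + 0.5) minus the gene's mean over the 12 libraries. Lines divide the mevalonate steps, the squalene to lanosterol steps, the lanosterol to cholesterol steps, the SREBP2 proteins and Stard4. The enzymes are above their mean in nearly all HFD PCN tiles, and HFD Vehicle 23 is low for Ebp, Sc5d and Insig2 and high for Srebf2.

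As a summary of the 18 enzymes, the mean log2(CPM + 0.5), set to 0 over the 12 libraries, was 0.40 ± 0.08 in HFD PCN, -0.01 ± 0.11 in HFD Vehicle, -0.31 ± 0.24 in HFD and -0.09 ± 0.14 in Chow (SD, n = 3 each). Its values were 0.49, 0.40 and 0.32 in HFD PCN 5, 11 and 27, and the highest among the other 9 libraries was 0.11 in HFD Vehicle 55. In HFD 4, 30 and 38 they were -0.45, -0.45 and -0.03, and in Chow 8, 17 and 19 -0.24, 0.03 and -0.04. HFD 38 thus lay within the range of Chow. The stretches did not follow the same order. The 3 squalene to lanosterol enzymes averaged 0.39 in HFD PCN, 0.29 in HFD Vehicle, -0.57 in HFD and -0.11 in Chow. The 8 lanosterol to cholesterol enzymes averaged 0.43 in HFD PCN, -0.22 in HFD Vehicle, -0.19 in HFD and -0.03 in Chow. HFD Vehicle stood near HFD PCN in the squalene steps and near HFD in the later steps, with a wide spread. Its values in libraries 23, 50 and 55 were 0.66, 0.16 and 0.05 for the squalene steps and -0.51, -0.29 and 0.14 for the later ones.

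Levels between genes were compared per kilobase of exon. Hmgcs1, the cytosolic HMG-CoA synthase, was the most abundant of the 25 in all 4 groups, at 39.3 CPM per kb in HFD PCN, 26.1 in HFD Vehicle, 20.4 in HFD and 25.1 in Chow. Insig1 (30.5 CPM per kb), Stard4 (25.1) and Sc5d (23.1) came next in HFD PCN, and Srebf2 itself stood at 11.9 CPM per kb there. Fdps, the farnesyl diphosphate synthase, had the lowest value, at 0.417 CPM per kb in HFD PCN and 0.199 in HFD. Fdps shares 26.71% of its exon bases with Gm43738 on the same strand, so its level is uncertain. It had 235 counts over the 12 libraries together, so its fold changes are imprecise.

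HFD PCN against HFD Vehicle asked what the PXR ligand changed in mice on the diet. Enzymes of the last stretch, from lanosterol to cholesterol, were higher with PCN in all 8 cases by fold change, with a median log2 fold change of 0.59, but none of the 25 genes passed the test over all genes. Srebf2, the gene of the factor itself, had a negative fold change. Of the 25, 17 had positive and 8 negative fold changes, where 49% and 51% of all genes did. The count of called genes, at an adjusted p under 0.05 by edgeR's quasi-likelihood test with Benjamini-Hochberg adjustment over 16110 genes, was 0 of 25, with 0.0621% of all genes called. DESeq2 and limma-voom also called 0 of the 25. At an unadjusted p under 0.05, 9 of the 25 were higher and 0 lower, where 6.46% of all genes were higher and 11.5% lower. The groups did not overlap for 12 genes higher and 2 lower, where this held for 9.84% and 9.48% of all genes. The median log2 fold change of the 25 was 0.44, and that of all genes tested was -0.01. All 25 genes passed the filter on low counts in each of the 4 comparisons.

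Among the mevalonate steps, Idi1, the isopentenyl diphosphate isomerase (ENSMUSG00000058258, chr13:8885501-8892451), stood at 16, 13.5 and 9.43 CPM in HFD PCN 5, 11 and 27, at 6.28, 5.66 and 7.95 CPM in HFD Vehicle 23, 50 and 55, at 4.94, 3.23 and 7.43 CPM in HFD 4, 30 and 38, and at 6.07, 7.96 and 9.29 CPM in Chow 8, 17 and 19. All HFD PCN values were above all others, the lowest of them by little over Chow 19. Against HFD Vehicle its log2 fold change was 0.98 (SE 0.28 and an adjusted p of 0.231 by edgeR). Hmgcs1 (ENSMUSG00000093930, chr13:119690379-119708260), whose promoter holds the sterol response element shown above, stood at 182, 208 and 152 CPM in HFD PCN, 119, 108 and 132 CPM in HFD Vehicle, at 90.0, 78.4 and 113 CPM in HFD and 99.3, 114 and 134 CPM in Chow, with libraries in the same order. Here too no HFD PCN library fell among the others. Against HFD Vehicle its log2 fold change was 0.58 (SE 0.21 and an adjusted p of 0.243 by edgeR).

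Acat2, the cytosolic thiolase that starts the pathway, averaged 13.4 ± 1.46 CPM in HFD PCN and 8.38 ± 0.753 CPM in HFD Vehicle (SD, n = 3 each), without overlap. The next kinases and the decarboxylase, Mvk, Pmvk and Mvd, had log2 fold changes of -0.03, 0.05 and -0.08, smaller than the SE of each. Fdps (ENSMUSG00000059743, chr3:89093588-89101959), which joins the isoprenoid units, stood at 1.56, 1.74 and 1.96 CPM in HFD PCN, 2.14, 2.03 and 2.98 CPM in HFD Vehicle, at 0.673, 0.528 and 1.31 CPM in HFD and 1.19, 0.853 and 1.52 CPM in Chow. It was lower in all HFD PCN libraries than in all HFD Vehicle libraries, against the direction of most enzymes. Its log2 fold change was -0.42 (SE 0.36 and an adjusted p of 0.510 by edgeR).

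In the squalene to lanosterol steps, Sqle, the squalene epoxidase (ENSMUSG00000022351, chr15:59315077-59331192), stood at 32.3, 34.0 and 32.1 CPM in HFD PCN, 30.3, 23.2 and 24.6 CPM in HFD Vehicle, at 14.6, 10.9 and 19.9 CPM in HFD and 17.4, 29.1 and 21.7 CPM in Chow. HFD PCN and HFD Vehicle lay side by side without overlap, and HFD lay below both. Against HFD Vehicle its log2 fold change was 0.32 (SE 0.20 and an adjusted p of 0.384 by edgeR). Fdft1, the squalene synthase (ENSMUSG00000021273, chr14:63145150-63179578), stood at 32.7, 27.1 and 25.4 CPM in HFD PCN, 38.1, 26.9 and 24.8 CPM in HFD Vehicle, at 15.3, 13.0 and 16.1 CPM in HFD and 17.6, 20.9 and 20.5 CPM in Chow. HFD PCN and HFD Vehicle overlapped, with a log2 fold change of -0.09 (SE 0.23 and an adjusted p of 0.851 by edgeR). Lss, the lanosterol synthase, had -0.06 and likewise overlapped.

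In the steps from lanosterol to cholesterol, Hsd17b7, a ketoreductase that acts while methyl groups are removed (ENSMUSG00000026675, chr1:169949535-169969241), stood at 36.0, 35.7 and 31.3 CPM in HFD PCN, 12.5, 16.7 and 26 CPM in HFD Vehicle, at 16.4, 19.8 and 21 CPM in HFD and 20.1, 20.3 and 24.1 CPM in Chow. The HFD PCN libraries were close together above all others, and the HFD Vehicle libraries were widely spread. Against HFD Vehicle its log2 fold change was 0.91 (SE 0.28 and an adjusted p of 0.231 by edgeR). Sc5d, the lathosterol desaturase (ENSMUSG00000032018, chr9:42251595-42264256), stood at 121, 124 and 91.3 CPM in HFD PCN, 33.9, 57.7 and 76.9 CPM in HFD Vehicle, at 58.6, 85.5 and 85.9 CPM in HFD and 71.5, 80.7 and 79.2 CPM in Chow. HFD PCN 27 was only slightly above the highest HFD libraries, and HFD Vehicle 23 was the lowest of all. Against HFD Vehicle its log2 fold change was 1.0 (SE 0.30 and an adjusted p of 0.231 by edgeR), the largest of the 25.

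The other 6 genes of this stretch had log2 fold changes of 0.12 for Dhcr7, the reductase of 7-dehydrocholesterol, to 0.82 for Ebp, the sterol isomerase. Msmo1, the oxidase that starts the removal of methyl groups, averaged 110 ± 6.15 CPM in HFD PCN and 75.1 ± 24.4 CPM in HFD Vehicle (SD, n = 3 each). Cyp51, the lanosterol demethylase, averaged 56.5 ± 14.6 CPM in HFD PCN and 40.3 ± 9.72 CPM in HFD Vehicle, and its groups overlapped. Across the stretch, 4 of 8 genes were higher at an unadjusted p under 0.05, where 6.46% of all genes were. The groups did not overlap for 6 of 8, all higher, where this held for 9.84% of all genes.

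**Figure D2:**
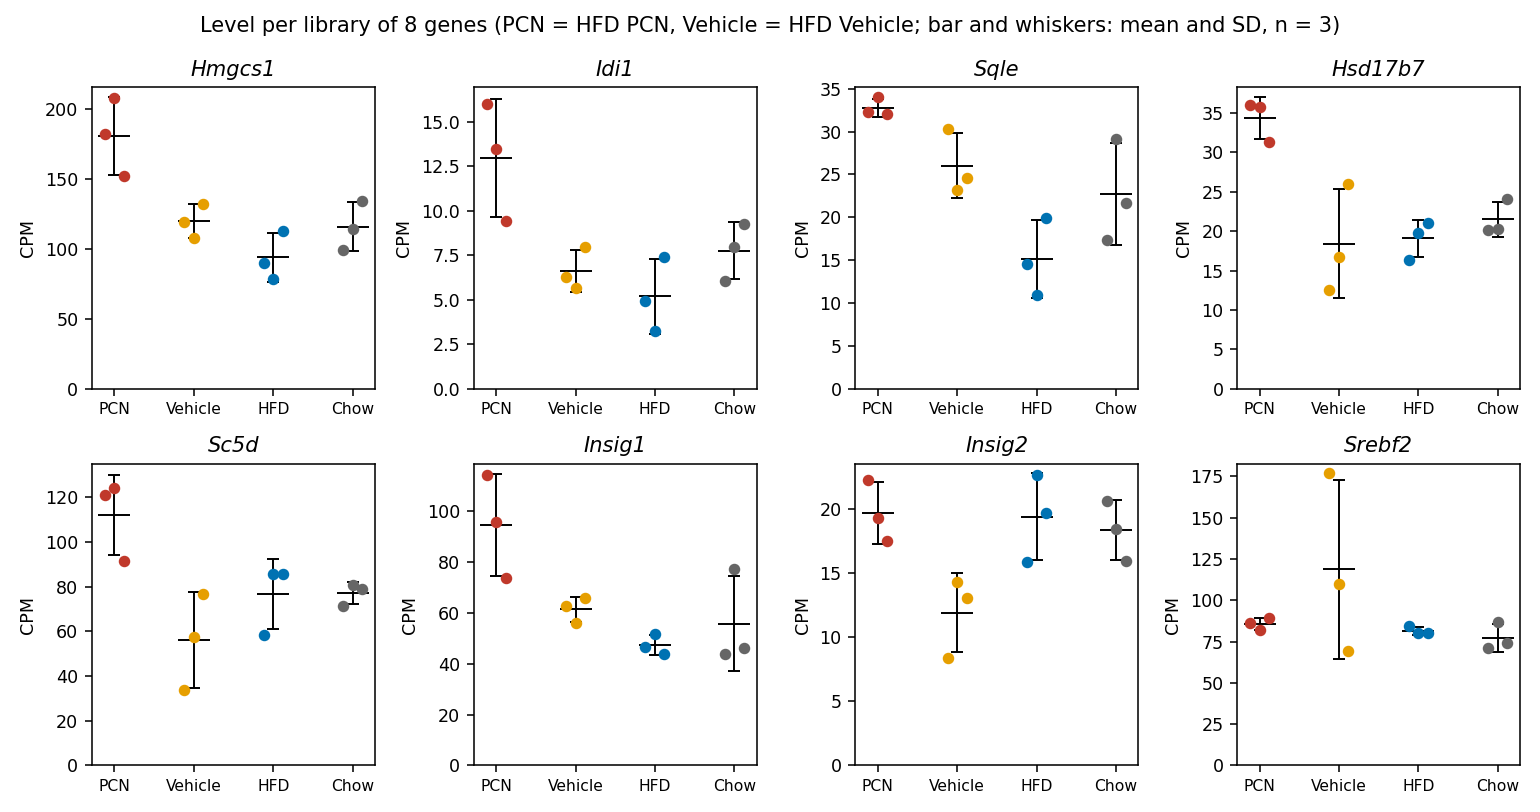
Points are CPM of single libraries by group for 8 of the genes, with the mean as a bar and the SD as whiskers (n = 3 per group). Hmgcs1, Idi1, Sqle, Hsd17b7 and Sc5d show HFD PCN above all other libraries, whereas Srebf2 shows 1 high HFD Vehicle library, at 177 CPM.

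Among the proteins around SREBP2, Srebf2 (ENSMUSG00000022463, chr15:82147181-82205379) stood at 86.3, 82.0 and 89.1 CPM in HFD PCN, 177, 110 and 69.3 CPM in HFD Vehicle, at 84.4, 80.1 and 80.1 CPM in HFD and 70.9, 87.1 and 74.2 CPM in Chow. Apart from HFD Vehicle 23 and 50, the libraries lay close together. Its log2 fold change against HFD Vehicle was -0.48 (SE 0.30 and an adjusted p of 0.394 by edgeR), and without HFD Vehicle 23 and 50 it was 0.28. Scap, the escort of SREBP2 (ENSMUSG00000032485, chr9:110333288-110384950), stood at 33.0, 30.3 and 38.9 CPM in HFD PCN, 54.5, 42.0 and 37.9 CPM in HFD Vehicle, at 40.2, 47.2 and 42.9 CPM in HFD and 34.7, 40.8 and 36.4 CPM in Chow. In these CPM, HFD PCN 27 lay slightly above HFD Vehicle 55, whereas in the scaling of the 6 libraries of this comparison the groups did not overlap. Its log2 fold change was -0.41 (SE 0.21 and an adjusted p of 0.319 by edgeR).

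Insig1, the retention protein that SREBP2 itself induces (ENSMUSG00000045294, chr5:28071363-28078662), stood at 114, 95.4 and 73.7 CPM in HFD PCN, 62.6, 55.9 and 65.6 CPM in HFD Vehicle, at 46.5, 51.6 and 43.8 CPM in HFD and 43.6, 77.2 and 46.3 CPM in Chow. HFD PCN lay above HFD Vehicle and HFD throughout, and only Chow 17 reached into its range. Against HFD Vehicle its log2 fold change was 0.61 (SE 0.22 and an adjusted p of 0.242 by edgeR). Insig2, a second retention protein, averaged 19.7 ± 2.44 CPM in HFD PCN and 11.9 ± 3.09 CPM in HFD Vehicle (SD, n = 3 each), with a log2 fold change of 0.72 (edgeR adjusted p = 0.242). HFD and Chow, at 19.4 ± 3.39 and 18.4 ± 2.35 CPM, were near HFD PCN. The protease genes Mbtps1 and Mbtps2 had log2 fold changes of -0.05 and 0.44, each with overlap. Stard4, which moves cholesterol between membranes, averaged 140 ± 8.49 CPM in HFD PCN and 127 ± 23.6 CPM in HFD Vehicle, with overlap.

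How many of the 25 genes were called depended on the HFD Vehicle libraries. Without HFD Vehicle 55, which had the fewest counts of all, 7 were called by edgeR, with Acat2, Idi1, Msmo1, Hsd17b7, Ebp and Sc5d higher and Srebf2 lower, while 22% of all genes were called. Without HFD Vehicle 23, 0 of 25 were called, and the log2 fold changes were 0.73 for Sc5d, 0.69 for Hsd17b7 and -0.09 for Srebf2. Without HFD Vehicle 23 and 50, those of Idi1, Sc5d and Hsd17b7 were 0.68, 0.52 and 0.37, and the median of the 25 was 0.35. Marker lists moved with the same libraries. The 12 markers of mature enterocytes, all of them positive by fold change, summed to 33418 to 37335 CPM in HFD PCN and to 12620, 29067 and 35526 CPM in HFD Vehicle 23, 50 and 55. The 8 markers of fibroblasts and smooth muscle, all of them negative, summed to 631 to 740 CPM in HFD PCN and to 1370, 1257 and 718 CPM in those HFD Vehicle libraries. The 7 T and NK cell markers were all positive, with a median log2 fold change of 1.24 and sums of 52.9 to 96.2 CPM in HFD PCN and 11.3, 23.4 and 64.0 CPM in those libraries. The 7 pancreatic acinar markers were all negative, with a median of -2.34 and sums of 1.81 to 16.8 CPM in HFD PCN and 71.9, 26.6 and 9.14 CPM in those libraries. All 8 heat shock chaperones tested were negative, 7 of them at an unadjusted p under 0.05. The part of these lists in the values of the 25 genes was not tested, and in bulk RNA fewer cells of a type and less RNA per cell cannot be told apart.

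**Figure D3:**
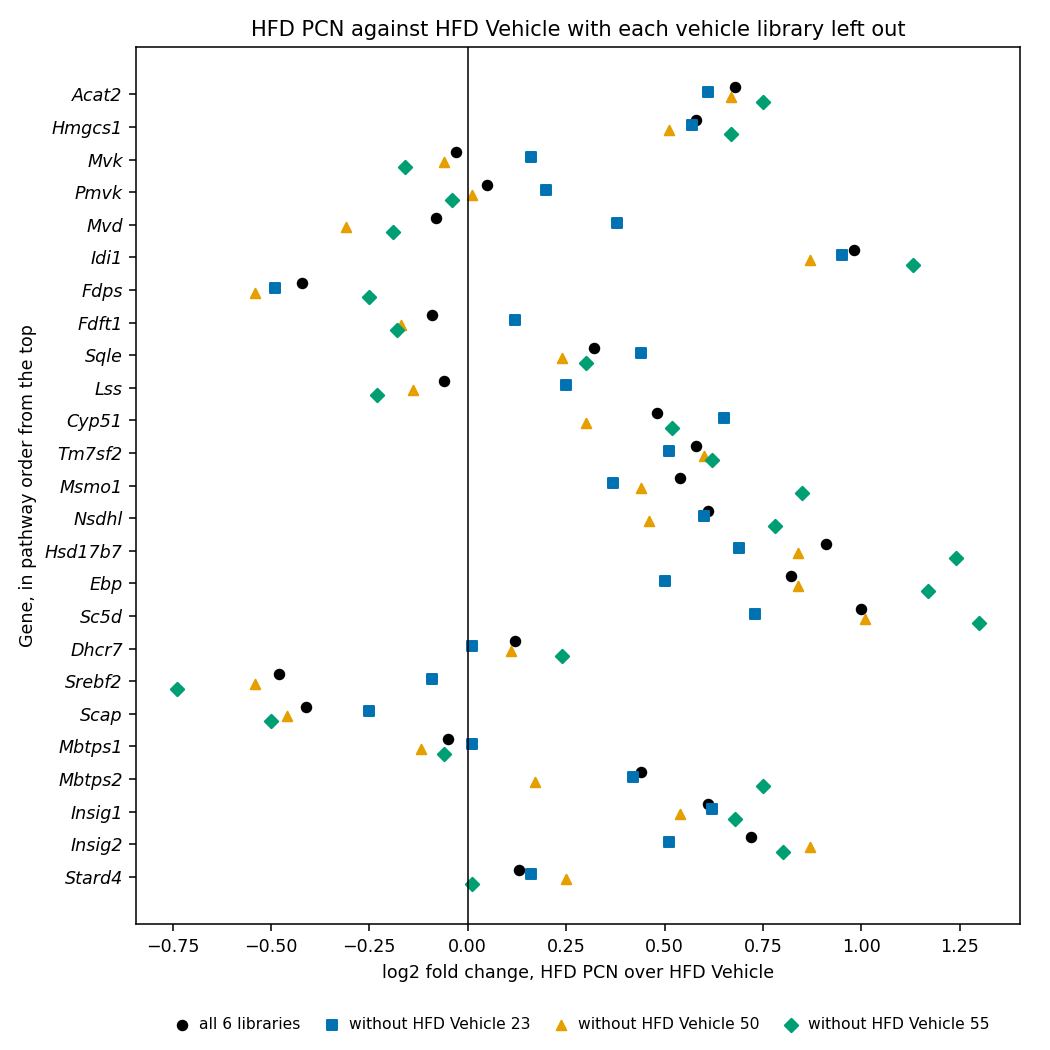
Log2 fold changes of HFD PCN over HFD Vehicle (horizontal axis) for the 25 genes with all 6 libraries and with each HFD Vehicle library left out in turn. Sc5d runs from 0.73 without HFD Vehicle 23 to 1.30 without HFD Vehicle 55, and Srebf2 from -0.09 to -0.74, whereas Hmgcs1, Acat2 and Insig1 change little.

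In the authors' deposited table none (0) of the 25 genes had an adjusted p under 0.05, where 0.752% of all genes did, and 10 were higher and 0 lower at an unadjusted p under 0.05, where 4.35% and 6.85% of all genes were. The median log2 fold change of the 25 in the authors' deposited table was 0.40.

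HFD PCN was also set against HFD, the group on the diet with no injection listed, by joining the raw counts of both tables. This comparison shares its HFD PCN libraries with the one above, and its HFD libraries with those that follow, and PCN and the injection cannot be told apart in it. All 18 enzymes had positive fold changes, with a median log2 fold change of 0.81, and Insig1 rose by the test. Of the 25, 23 had positive and 2 negative fold changes (Scap and Mbtps1), where 50.1% and 49.9% of all genes did. Insig1 was the only 1 of the 25 genes called by edgeR (adjusted p = 0.0488), where 0.325% of 15982 genes were called, with 0.244% called as higher. Its log2 fold change was 1.0 with an SE of 0.19, and its 3 HFD PCN libraries were all above its 3 HFD libraries. The call was narrow. The adjusted p of Insig1 ran from 0.000346 to 0.28 over 13 other settings, and it was not called without HFD PCN 5 (0.28), HFD PCN 11 (0.211), HFD 4 (0.154) or HFD 30 (0.161).

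At an unadjusted p under 0.05, 15 of the 25 were higher in HFD PCN than in HFD and 1 lower, where 8.38% of all genes were higher and 9.85% lower. The groups did not overlap for 18 genes higher and 1 lower, where this held for 11.4% and 11.9% of all genes. The median log2 fold change of the 25 was 0.73, and that of all genes 0.00. Next to Insig1, the smallest adjusted p of edgeR's test were 0.0546 for Fdft1, 0.0560 for Sqle, 0.0561 for Hsd17b7 and 0.0669 for Hmgcs1. The log2 fold changes were 0.95 (SE 0.18) for Fdft1, 1.11 (SE 0.22) for Sqle, 0.84 (SE 0.17) for Hsd17b7 and 0.95 (SE 0.20) for Hmgcs1. DESeq2 called 10 of the 25 (Hmgcs1, Idi1, Fdft1, Sqle, Lss, Cyp51, Msmo1, Hsd17b7, Insig1 and Stard4, all higher), and it called 2.87% of all genes. Single libraries moved the count by edgeR. Without HFD 38 it was 10, the same genes as by DESeq2, with 2.75% of all genes called, and without HFD PCN 27 it was 5 (Hmgcs1, Fdft1, Cyp51, Hsd17b7 and Insig1), with 1.36% called.

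By role, the 3 squalene to lanosterol enzymes had log2 fold changes of 0.82 to 1.11, the 7 enzymes of the mevalonate steps 0.18 for Pmvk to 1.32 for Idi1, and the 8 later enzymes 0.19 for Ebp to 1.06 for Cyp51. Stard4 stood at 142, 148 and 131 CPM in HFD PCN, 133, 147 and 101 CPM in HFD Vehicle, at 70.5, 78.2 and 99.8 CPM in HFD and 95.5, 118 and 148 CPM in Chow. Both injected groups lay above HFD throughout, and Chow overlapped with all 3. Its log2 fold change in HFD PCN against HFD was 0.76 (SE 0.17 and an adjusted p of 0.0922 by edgeR). Srebf2 had a log2 fold change of 0.07 and the genes of the proteases that cut SREBP2 had -0.11 (Mbtps1) and 0.25 (Mbtps2). Scap, which carries SREBP2, had -0.35 without overlap and was the 1 gene lower at an unadjusted p under 0.05. Insig2 had 0.01, unlike Insig1. The 12 markers of crypt stem and cycling cells all had positive fold changes and summed to 638 to 958 CPM in HFD PCN and 299 to 683 CPM in HFD. Of the 8 markers of fibroblasts and smooth muscle, 7 had negative fold changes and 2 were called lower by edgeR, where 13 of 15982 genes were. The 8 markers summed to 631 to 740 CPM in HFD PCN and to 1619, 812 and 685 CPM in HFD 4, 30 and 38. All 6 macrophage markers had negative fold changes, 3 of them without overlap and 0 called by edgeR, with sums of 38.7 to 55.8 CPM in HFD PCN and 80.1 to 88.2 CPM in HFD. The part of these lists in the values of the 25 genes was not tested.

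**Figure D4:**
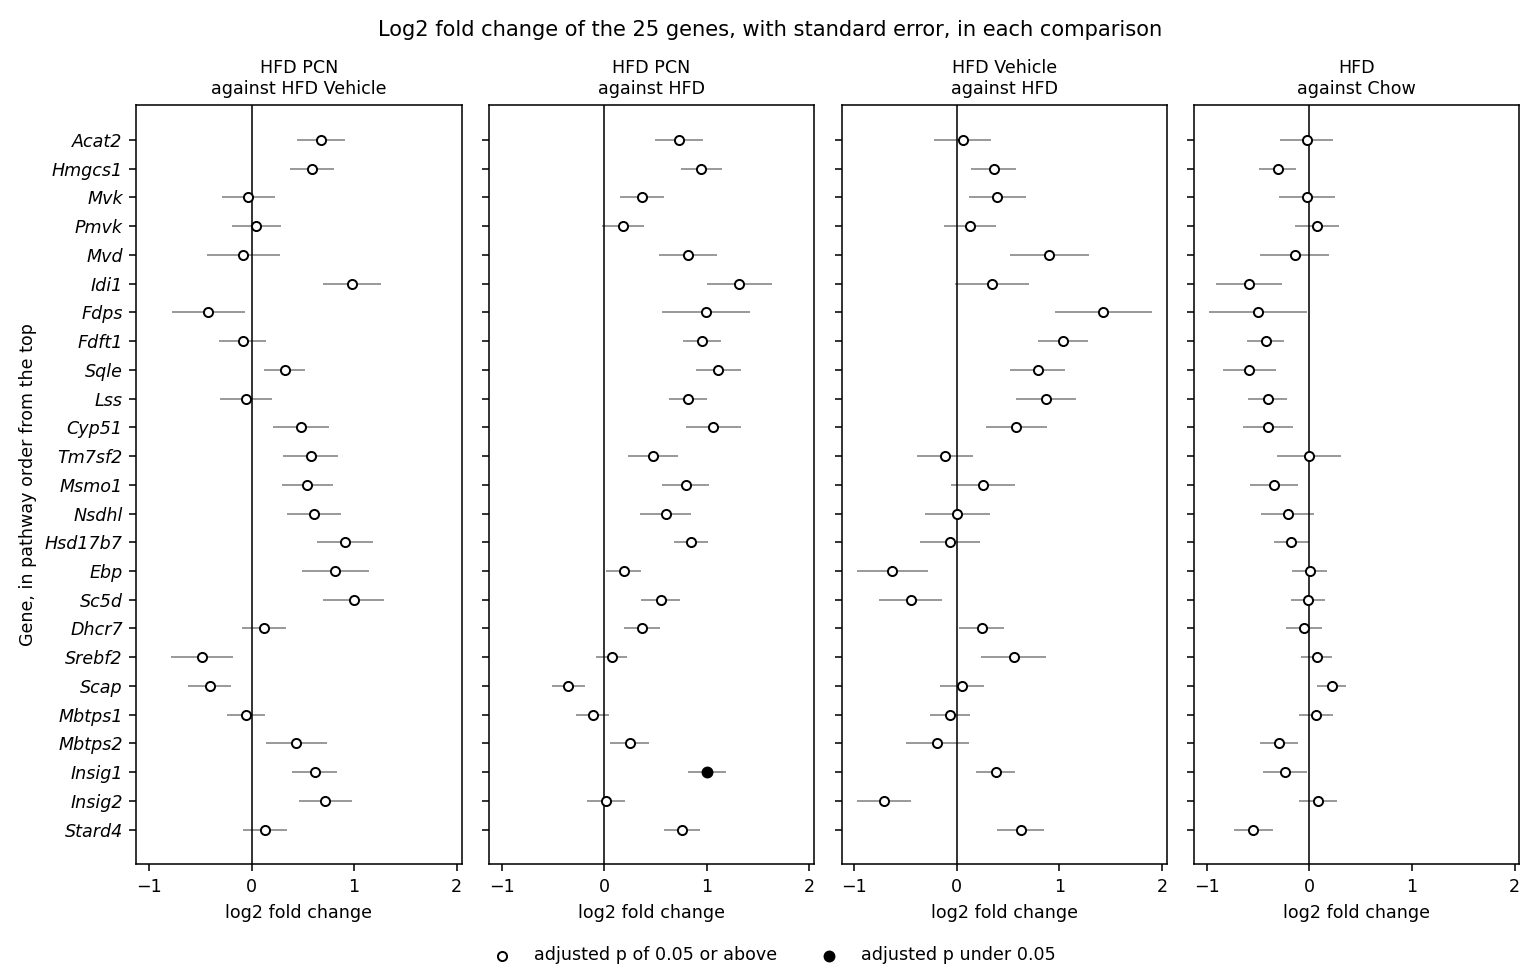
Log2 fold changes (points) with their SE (lines) for the 25 genes in the 4 comparisons; the filled point is the 1 gene with an adjusted p under 0.05, Insig1 in HFD PCN against HFD. All 18 enzymes are right of 0 in HFD PCN against HFD, and 16 of 18 are left of 0 in HFD against Chow.

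HFD Vehicle against HFD sets vehicle injections against none listed. Fdps had the largest log2 fold change of the 25, 1.43 (SE 0.47), and the 3 squalene to lanosterol enzymes were all higher by fold change, with log2 fold changes of 1.03 (SE 0.24) for Fdft1, 0.87 (SE 0.29) for Lss and 0.79 (SE 0.27) for Sqle, and the groups did not overlap for any of these 4. Fdps had a mean of only 19.7 counts per library here, and its log2 fold change ran from 1.12 to 2.0 over 14 other settings. Without HFD Vehicle 23, Lss had 0.56, and without HFD Vehicle 23 and 50 it had 0.40, Fdft1 had 0.78 and Sqle 0.73. Of the 25, 18 had positive and 7 negative fold changes, where 50.7% and 49.3% of all genes did, and none passed the test. By edgeR 0 of the 25 and 0% of 16255 genes were called, 953 genes had an unadjusted p under 0.05, and DESeq2 called 0 of the 25 and 29 genes in all. The adjusted p of Fdft1, Lss and Sqle was 0.803. At an unadjusted p under 0.05, 6 of the 25 were higher and 1 lower, where 3.65% and 2.21% of all genes were. The groups did not overlap for 6 genes higher and 1 lower, where this held for 4.65% and 5.27%.

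The other genes higher at that unadjusted threshold were Mvd, the mevalonate diphosphate decarboxylase (0.90, SE 0.39, and 0.44 without HFD Vehicle 23), and Stard4 (0.62, SE 0.23, and 0.31 without HFD Vehicle 23 and 50). Insig2 was the 1 gene lower, averaging 11.9 ± 3.09 CPM in HFD Vehicle against 19.4 ± 3.39 CPM in HFD (SD, n = 3 each), with a log2 fold change of -0.71. Insig1 had 0.38 in the other direction. The lanosterol to cholesterol stretch was split, with 4 positive and 4 negative fold changes and a median of -0.03. Ebp and Sc5d had -0.63 and -0.45, and Srebf2 had 0.55. Without HFD Vehicle 23 and 50 these 3 values were -0.07, 0.03 and -0.21.

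In HFD PCN against HFD, HFD Vehicle against HFD and HFD PCN against HFD Vehicle, in that order, the log2 fold changes of Fdft1 were 0.95, 1.03 and -0.09, those of Lss 0.82, 0.87 and -0.06, and those of Sqle 1.11, 0.79 and 0.32. For Hsd17b7 they were 0.84, -0.07 and 0.91, and for Sc5d 0.55, -0.45 and 1.0. The last 2 values depended on HFD Vehicle 23 and 50 for Lss, Hsd17b7 and Sc5d. Without both libraries, HFD Vehicle against HFD and HFD PCN against HFD Vehicle gave 0.78 and 0.16 for Fdft1, 0.40 and 0.41 for Lss, 0.73 and 0.38 for Sqle, 0.47 and 0.37 for Hsd17b7, and 0.03 and 0.52 for Sc5d. These comparisons share libraries in pairs, and the difference between them was not tested.

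HFD against Chow asked what changed with the high-fat diet. No gene of the 25 passed, and 16 of 18 enzymes had negative fold changes, with a median log2 fold change of -0.20 over the enzymes. The signs were not stable: 7 enzymes were positive with sample quality weights, 6 without HFD 4, 6 without Chow 17 and 5 with limma-voom, where 2 were positive in the fit reported. Of the 25, 6 had positive and 19 negative fold changes, where 50.5% and 49.5% of all genes did. By edgeR 0 of the 25 were called, where 0.0655% of 15278 genes were, and DESeq2 and limma-voom also called 0 of the 25. At an unadjusted p under 0.05, 0 of the 25 were higher and 3 lower, where 5.75% and 4.59% of all genes were. The groups did not overlap for 1 gene higher and 3 lower, where this held for 8.14% and 8.16% of all genes. The median over the 25 was -0.18, and that of all genes 0.00.

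The genes under that unadjusted threshold were Stard4, Fdft1 and Sqle. Stard4 averaged 82.8 ± 15.2 CPM in HFD and 121 ± 26.3 CPM in Chow (SD, n = 3 each), with a log2 fold change of -0.55 (SE 0.19 and an adjusted p of 0.404 by edgeR). HFD 38, at 99.8 CPM, lay above Chow 8, at 95.5 CPM. Fdft1 averaged 14.8 ± 1.61 CPM in HFD and 19.7 ± 1.78 CPM in Chow without overlap, with a log2 fold change of -0.43 (SE 0.18 and an adjusted p of 0.465 by edgeR). Sqle had -0.59 (SE 0.26 and an adjusted p of 0.471 by edgeR), and HFD 38 overlapped with Chow 8. Lss, with -0.41, and Mbtps2, with -0.30, were lower without overlap. Scap, with 0.22, was higher without overlap in the scaling of the 6 libraries of this comparison. In the CPM over all 12 libraries, HFD 4, at 40.2 CPM, lay slightly below Chow 17, at 40.8 CPM, for Scap. The later enzymes Ebp, Sc5d and Dhcr7 had 0.00, -0.01 and -0.05, and Srebf2 had 0.07. Insig1 had -0.24, and 0.07 without Chow 17. Marker lists of other cells moved more than these genes. All 7 T and NK cell markers were lower at an unadjusted p under 0.05, with a median log2 fold change of -1.39 and sums of 23.1 to 72.5 CPM in HFD and 90.7 to 170 CPM in Chow. All 7 pancreatic acinar markers tested were lower without overlap, with a median of -3.26 and sums of 4.0 to 20.5 CPM in HFD and 42.4 to 106 CPM in Chow. Neither list had a gene called by edgeR, and their part in the values of the 25 genes was not tested. In the authors' deposited table none (0) of the 25 had an adjusted p under 0.05, where 0.378% of all genes did, and 0 were higher and 3 lower at an unadjusted p under 0.05, where 2.81% and 2.57% of all genes were.

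Several of these genes share exon bases with a neighbour, and the strand setting of the counting is not given. Fdft1 shares 18.31% of its exon bases with Ctsb on the opposite strand, which had 39294 counts over the 12 libraries where Fdft1 had 3664. Ctsb had log2 fold changes of -0.18 in HFD PCN against HFD and -0.46 in HFD Vehicle against HFD, where Fdft1 had 0.95 and 1.03. In HFD PCN against HFD Vehicle and HFD against Chow, Ctsb had 0.27 and 0.31, where Fdft1 had -0.09 and -0.43. The part of Ctsb reads in the values of Fdft1 was not tested. Cyp51 shares 3.76% with Akap9 on the opposite strand, which had 66603 counts where Cyp51 had 6268. Akap9 had log2 fold changes of 0.43 in HFD PCN against HFD, 0.42 in HFD Vehicle against HFD and -0.31 in HFD against Chow, the same sign as Cyp51 (1.06, 0.58 and -0.40), and its part in those values was not tested. Fdps shares 26.71% with Gm43738, Mbtps2 28.37% with Yy2 and Tm7sf2, a sterol reductase, 12.08% with Vps51, each on the same strand, so these 3 values are uncertain.

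Of 7 genes that supply electrons or scaffold sterol enzymes, all 7 had positive fold changes in HFD PCN against HFD Vehicle, where 49% of all genes did. Their median log2 fold change was 0.89, and 0 were called by edgeR, where 0.0621% of all genes were. Cyb5a, the cytochrome b5 that hands electrons to Sc5d and Msmo1, stood at 668, 509 and 315 CPM in HFD PCN, 140, 187 and 193 CPM in HFD Vehicle, at 122, 160 and 176 CPM in HFD and 204, 197 and 221 CPM in Chow. HFD PCN was above all other libraries. Cyb5a rose in HFD PCN against HFD, with a log2 fold change of 1.70 (SE 0.27 and an adjusted p of 0.0250 by edgeR). It was the 1 of 7 called there, where 0.325% of all genes were called. It was not called without HFD PCN 5 (0.0663), HFD PCN 11 (0.0968), HFD 4 (0.154) or HFD 30 (0.125), and its adjusted p over 13 other settings ran from 3.22e-08 to 0.154. In HFD PCN against HFD Vehicle it had 1.52 (SE 0.31 and an adjusted p of 0.212 by edgeR). Pgrmc1, a membrane heme protein that binds cytochrome P450 enzymes, had 1.30 (SE 0.40), and Erg28, a scaffold of sterol demethylation, 0.94 (SE 0.34).

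The 14 genes of the isoprenoid branches, which draw on the mevalonate steps for dolichol, ubiquinone and protein prenylation, had fold changes in both directions. Their median log2 fold change was 0.00 in HFD PCN against HFD Vehicle, with 7 positive and 7 negative, and -0.06 in HFD PCN against HFD, with 0 of 14 called by edgeR in either. Fnta, a subunit of the prenyltransferases, had 0.66 (SE 0.21), Rabggtb, a subunit of the Rab prenyltransferase, -0.78 (SE 0.32) and Ggps1, the geranylgeranyl diphosphate synthase, 0.48 (SE 0.21) against HFD Vehicle. Of 12 genes of sterol-regulated protein turnover in the endoplasmic reticulum, 0 were called by edgeR in any of the 4 comparisons. In HFD PCN against HFD Vehicle 3 of them were lower at an unadjusted p under 0.05, where 11.5% of all genes were, namely Rnf145 (-0.67, SE 0.23), Ube2g2 (-1.12, SE 0.39) and Syvn1 (-1.17, SE 0.42), which encode ubiquitin ligases and a conjugating enzyme. Syvn1 stood at 31.5, 26.9 and 29.3 CPM in HFD PCN and at 105, 65.1 and 24.8 CPM in HFD Vehicle 23, 50 and 55, and Ube2g2 at 12, 12.6 and 9.72 CPM in HFD PCN against 36.2, 27.2 and 9.93 CPM in those libraries. For both, HFD Vehicle 23 and 50, the libraries with high heat shock chaperones, stood above HFD PCN and HFD Vehicle 55 did not stand above it.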

How the data were processed

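RNA was sequenced in 12 duodenum libraries, 3 per group. The counts in both tables (2) are raw reads per gene as deposited by the authors, each beside the authors' own comparison. Tools listed in the submitters' processing notes are HISAT2, HTSeq and DESeq2, and the build is GRCm38 (mm10). Versions, annotation, strand setting and filters are not given in the sources used here. Coordinates are as deposited, counted from 1. No column of values was without a sample. Total counts per library limit the precision of low genes.

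Each comparison was fitted on the raw counts of its 6 libraries and all its genes with edgeR 4.0.16 in R 4.3.3 (filterByExpr, TMM, robust quasi-likelihood F-test, Benjamini-Hochberg adjustment, threshold 0.05). SEs are approximate, being the log2 fold change divided by the root of F. Comparisons across tables joined raw counts of 26121 shared genes. Alternatives were DESeq2 1.42.0, its size factors in edgeR, limma-voom and sample quality weights (limma 3.58.1), no filter, 1 fit of 12 libraries, mitochondrial ribosomal RNA, Lars2 and Gm15564 left out, and libraries left out. Exon lengths and overlaps come from GENCODE M21, promoters from RefSeq (GRCm38.p6).

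Members, lists and tests were chosen with earlier results of these data known. Values in every library are given for Srebf2, Insig1, Hmgcs1 and Sqle, for genes called in any comparison, for the 3 with the smallest p in each of HFD PCN against HFD Vehicle and HFD against Chow, and for the 3 largest and 3 smallest fold changes in HFD PCN against HFD Vehicle. Of each other list, up to 3 genes with the smallest p are named. The overlapping genes and the HFD Vehicle libraries left out together in HFD Vehicle against HFD were chosen after seeing the data. Fold changes, p-values and adjusted p-values computed by the authors appear only in sentences naming their deposited table.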

Additional observations from a re-analysis of the deposited data

How the results depend on the processing

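The settings moved both the counts of called genes and the fold changes. Of the 25 genes in HFD PCN against HFD Vehicle, edgeR without a filter on low counts called 3, where 2.93% of all genes were called. Sample quality weights called 14 of the 25, where 40.6% of all genes (6538) were called. Leaving out 1 library at a time gave 0 to 7, with medians of 0.25 to 0.52. Leaving out HFD Vehicle 23 and 50 gave a median of 0.35, turned Srebf2 to 0.28, Mbtps2 to -0.11, Dhcr7 to -0.12, Fdft1 to 0.16, Lss to 0.41, Mvd to 0.25 and Mvk to 0.35, and in HFD Vehicle against HFD turned Sc5d to 0.03, Srebf2 to -0.21, Hsd17b7 to 0.47, Mbtps2 to 0.35, Scap to -0.17 and Pmvk to -0.12. In these fits the lone HFD Vehicle library is assumed to vary like the others.

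In HFD PCN against HFD, 10 of the 25 were called by DESeq2, 10 without a filter and 9 with quality weights. Of all genes, 2.87%, 2.9% and 2.27% were called, in that order. With DESeq2 size factors, limma-voom, the fit of 12 libraries or without ribosomal RNA genes, 0 of the 25 were called. Leaving out 1 library gave 0 to 10, with medians of 0.58 to 0.91. In HFD Vehicle against HFD and in HFD against Chow, 0 of the 25 were called under every setting run, with medians of 0.15 to 0.35 and of -0.35 to -0.10 when 1 library was left out. Insig1 in HFD against Chow turned to 0.07 without Chow 17 and ran from -0.39 to 0.07 with 1 library left out.

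Over all genes, HFD PCN against HFD Vehicle gave 10 calls in the fit reported, 320 by DESeq2, 843 without a filter, 34 with 12 libraries, 4 without ribosomal RNA genes, 2 without HFD Vehicle 23 and 50, and 0 to 3697 with 1 library left out. HFD PCN against HFD gave 52 calls, 459 by DESeq2, 746 without a filter, 29 with 12 libraries, 362 with quality weights and 1 to 452 with 1 library left out. HFD Vehicle against HFD gave 0 calls, 29 by DESeq2, 1 without a filter, 1 with 12 libraries, 2 with quality weights, 6 without HFD Vehicle 23 and 50, and 0 to 260 with 1 library left out. HFD against Chow gave 10 calls, 138 by DESeq2, 351 without a filter, 2 with 12 libraries, 16 with quality weights and 4 to 63 with 1 library left out. The cause of these moves was not tested.

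No paired analysis was possible because the groups compared share no replicate numbers. With 3 libraries per group and totals down to 4676718 counts, a fold change of a low gene such as Fdps is imprecise, and a p over the threshold does not show that 2 groups are alike.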

Other observations

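Outside the 25 genes, 12 other genes described as responsive to SREBP2, among them genes of fatty acid synthesis, had 11 positive fold changes in HFD PCN against HFD, with a median log2 fold change of 0.47 and 0 called by edgeR (5 higher at an unadjusted p under 0.05, where 8.38% of all genes were). Against HFD Vehicle they were split, with 6 positive and 6 negative. Elovl6, a fatty acid elongase, stood at 454, 450 and 235 CPM in HFD PCN, 77.0, 103 and 197 CPM in HFD Vehicle, at 193, 266 and 225 CPM in HFD and 191, 149 and 116 CPM in Chow. HFD PCN 5 and 11 were far above all other libraries and HFD PCN 27 was within the range of HFD. Its log2 fold change against HFD Vehicle was 1.59 (SE 0.40 and an adjusted p of 0.231 by edgeR). Srebf1, which encodes the relative of SREBP2 that drives fatty acid synthesis, stood at 50.1, 39.4 and 61.7 CPM in HFD PCN, 112, 67.5 and 62.4 CPM in HFD Vehicle, at 35.0, 47.1 and 55.1 CPM in HFD and 33.0, 45.9 and 45.5 CPM in Chow. HFD PCN lay below HFD Vehicle throughout, HFD PCN 27 by little, with a log2 fold change of -0.69 (SE 0.27 and an adjusted p of 0.252 by edgeR).

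A list of 11 genes covered the sterol sensor LXR, sterol esterification and, with Npc1l1, cholesterol uptake. Of these, 10 had positive fold changes in HFD PCN against HFD Vehicle, where 49% of all genes did. The median of the 11 was 0.34, and edgeR called 0 of them, where 0.0621% of all genes were called. In HFD PCN against HFD, 9 were positive, where 50.1% of all genes were. There edgeR called 1 (Abca1), where 0.325% of all genes were called. Abca1, the exporter of cellular cholesterol and a standard LXR target, stood at 438, 420 and 398 CPM in HFD PCN, 147, 187 and 273 CPM in HFD Vehicle, at 118, 186 and 224 CPM in HFD and 117, 104 and 166 CPM in Chow. HFD PCN was above every other library. Abca1 rose in HFD PCN against HFD, with a log2 fold change of 1.26 (SE 0.23 and an adjusted p of 0.0483 by edgeR), and had 1.04 (SE 0.27 and an adjusted p of 0.231 by edgeR) against HFD Vehicle. Against HFD it was not called without HFD PCN 5 (0.18), HFD PCN 11 (0.199), HFD 4 (0.0916) or HFD 30 (0.164), in the fit of 12 libraries (0.112) or without ribosomal RNA genes (0.0553), and its adjusted p over 13 other settings ran from 9.93e-06 to 0.199. Npc1l1, the uptake channel for dietary cholesterol, stood at 531, 470 and 516 CPM in HFD PCN, 223, 416 and 316 CPM in HFD Vehicle, at 244, 456 and 342 CPM in HFD and 377, 445 and 505 CPM in Chow. HFD PCN overlapped with Chow only, and its log2 fold change against HFD Vehicle was 0.66 (SE 0.27 and an adjusted p of 0.263 by edgeR).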
